A study of Arabidopsis thaliana with 12 samples.

Results

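Root tips in which the microRNA precursor MIR165A was induced were compared as a whole with mock-treated tips, to find the differences shared by every induction time. The induced side was made of the 9 arrays from seedlings kept for 6 h, 10 h or 24 h on 5 µM ß-estradiol, 3 arrays per time, and the mock side of the 3 arrays labelled 0 h. All 12 arrays of the series were used. The induced level of a gene was the mean of the 3 time means, so that each time counted equally, and the pooled difference was that level minus the mock mean. All values are log2 signals, so a difference of 1 is a doubling.

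Every group was Arabidopsis thaliana in the Col-0 background with the transgene pCRE1_XVE::MIR165A, and consisted of the terminal 0.5 mm of primary roots at 4 days post germination. The CRE1 promoter drives the transgene in the stele, the vascular cylinder inside the root, so cells outside it were sampled but not targeted. Mock plates held the ethanol solvent alone. How long the mock seedlings stayed on them is not given, so a difference in time since transfer or in time of day cannot be told apart from induction. About 200 tips were combined for each biological replicate, and collections were staggered so that ages matched within 4.5 h. Plants lacking the transgene were not analysed here, and whether the line is 1 clone is not given, so the effects of the microRNA, the estradiol and the induced XVE protein cannot be told apart.

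MicroRNAs are short RNAs that guide the cleavage of transcripts with a matching site. MiR165 and its close relative miR166 target the class III homeodomain leucine zipper (HD-ZIP III) genes, which encode transcription factors that set the identity of xylem and the polarity of lateral organs. In the root, miR165 and miR166 made in the endodermis move into the stele and lower HD-ZIP III levels at its edge. XVE is a chimaeric transcription factor that activates its target promoter when estradiol is bound.

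Array medians lay between 5.97, on mock replicate 1, and 6.13. The mean of the spike-in control probe sets was 9.996 on mock replicate 1 and 8.99 to 9.48 on the other arrays. Pairs of arrays correlated at 0.993 to 0.998 within a group and at 0.990 to 0.997 across groups. The 3' to 5' difference of the actin control probe sets, a sign of RNA integrity, was 4.36 to 4.96 on induced arrays and 4.59 to 4.88 on mock arrays. The 3' signal was thus far the higher on every array. Few cell type markers had a named probe set. The root cap marker AT5G54370 stood at percentile 98.0 of all probe sets on the mock arrays, the vascular factor LHW at percentile 79.3 and the stem cell niche gene BBM at percentile 58.8, while no leaf photosynthesis marker on the list was named.

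Across the 9 induced arrays, 541 of 22746 probe sets differed from mock (2.38%, 50.8% of them with a single gene name, limma with Benjamini-Hochberg adjusted p under 0.05), 405 higher (1.78%) and 136 lower (0.598%). Of these, 529 kept their direction at all 3 times (97.8%), and in 236 (43.6%) the 9 induced arrays all lay on the called side of the mock arrays. Both counts follow in part from the choice of calls on the mean of the same differences, which share the mock arrays, and are given as a description. The sizes were uneven. The largest of the 3 time differences fell at 10 h for 444 calls (82.1%), at 24 h for 56 (10.4%) and at 6 h for 41 (7.58%). Over all probe sets tested, 44.5% had their largest difference at 10 h. Taken singly against the same mock arrays, 6 h gave 96 calls (0.422%), 10 h gave 1705 (7.5%) and 24 h gave 173 (0.761%). By unadjusted p under 0.05 in the pooled comparison, 3299 probe sets differed.

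Leaving out 1 time showed how far the pooled result rested on it. Without the 6 h arrays 483 of the 541 calls remained and without the 24 h arrays 507 remained, whereas without the 10 h arrays 57 remained (10.5%). Refitted calls numbered 658 higher (2.89%) and 146 lower (0.642%) without 6 h, 29 higher (0.127%) and 28 lower (0.123%) without 10 h, and 746 higher (3.28%) and 435 lower (1.91%) without 24 h. The 10 h arrays thus carried most of the pooled calls, and more of the rises than of the falls, since 89.4% of the calls higher in induced tips and 60.3% of the lower calls were largest at 10 h. In a fit that took the 9 induced arrays as a single group, and so counted differences between times as spread, 26 probe sets passed (0.114%), 14 higher (0.0615%) and 12 lower (0.0528%). The mock arrays mattered as well, since there were 212 calls without mock replicate 1 and 220 without mock replicate 2.

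**Figure D1:**
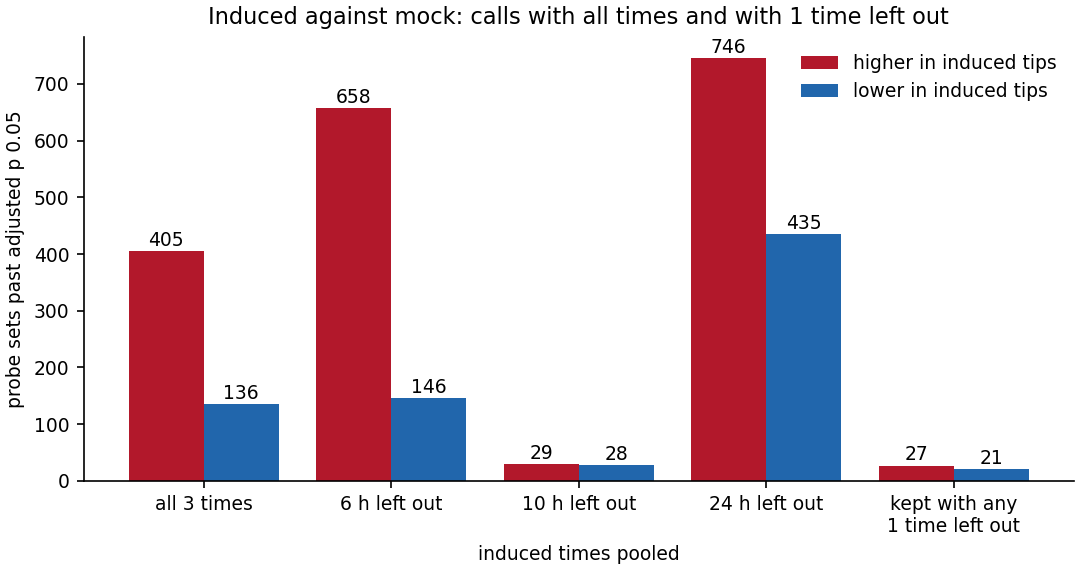
Number of probe sets past an adjusted p of 0.05 in induced against mock tips (vertical axis), higher in red and lower in blue, with all 3 induced times pooled and with each time left out. The 541 calls (405 higher, 136 lower) shrank to 57 (29 higher, 28 lower) without the 10 h arrays, and 48 (27 higher, 21 lower) were called whichever time was left out.

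PHV, an HD-ZIP III gene and direct target of miR165, was the only member of its family with a named probe set, and it fell in the induced tips. Its signal ranged from 6.43 to 6.80 with a median of 6.70 on the 9 induced arrays, against 6.99, 7.16 and 7.00 on the mock arrays. Every induced array was below every mock array. The pooled difference was -0.42 (SE 0.08, 95% interval -0.59 to -0.24, limma adjusted p = 0.0166), which leaves the induced signal at 0.750 of the mock signal. An exact two-sided permutation test over the 220 ways of choosing 3 mock arrays among 12 gave p = 0.00455, the smallest such a test can give. That value follows from the full separation of the groups, which 545 of all probe sets (2.4%) shared, and the test ignores the time groups. The differences were -0.31 at 6 h (limma adjusted p = 0.28), -0.52 at 10 h (limma adjusted p = 0.00631) and -0.41 at 24 h (limma adjusted p = 0.0884), so only 10 h passed singly. A test of variation among the 3 induced times did not pass (F test, limma adjusted p = 0.47). PHV was no longer past the threshold without mock replicate 1 (limma adjusted p = 0.0513), without mock replicate 2 (limma adjusted p = 0.105) or without the 10 h arrays (limma adjusted p = 0.206), although its difference stayed between -0.45 and -0.36 when any 1 array was left out. In whole tips, a lower signal per cell and fewer cells with the transcript cannot be told apart, here or in the results that follow.

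By the strict reading of sharing, a probe set had to pass at 6 h, at 10 h and at 24 h separately and in 1 direction. This was met by 15 probe sets (0.0659%), 7 higher (0.0308%) and 8 lower (0.0352%). The 3 comparisons share the mock arrays, so the count describes sharing and is no independent support for it. In all 15 the 9 induced arrays lay on 1 side of the 3 mock arrays, a separation seen in 545 of all probe sets (2.4%), 275 above (1.21%) and 270 below (1.19%). A platform gene name was available for 9 of the 15.

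AT1G13930, a gene linked to dehydration, had the largest rise among them. It read 7.18 to 9.12 with a median of 8.14 on the induced arrays, against 5.61, 6.01 and 6.39 on the mock arrays. The gap between the lowest induced and the highest mock array was wide, and the pooled difference was 2.17 (SE 0.13, limma adjusted p = 7.35e-07), a 4.51-fold rise. It amounted to 2.17 at 6 h, 3.04 at 10 h and 1.31 at 24 h. These sizes differed among the times (F test, limma adjusted p = 0.000185). The gene was thus higher at every time without holding 1 level.

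AT5G57785 read 6.62 to 8.08 with a median of 7.31 on the induced arrays, against 5.16, 5.69 and 5.84 on the mock arrays. All induced arrays were above the mock range, and the pooled rise was 1.83 (SE 0.16, limma adjusted p = 4.65e-05), or 3.54-fold. AT5G57785 and AT1G13930 were also the only probe sets to pass when the largest of the 3 p-values per probe set was adjusted over all probe sets in limma, a stricter rule for a change at every time (adjusted p = 0.0204 and adjusted p = 0.0187). AT5G12050 read 7.59 to 8.87 with a median of 8.32 on the induced arrays, against 6.84, 6.70 and 7.38 on the mock arrays. Its pooled rise was 1.32 (SE 0.12, limma adjusted p = 9.93e-05), smallest at 6 h (0.80) and largest at 10 h (1.82).

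A pair of smaller rises had nearly the same size at all times. AT2G34080 read 6.47 to 6.76 with a median of 6.56 on the induced arrays, against 5.96, 6.04 and 5.87 on the mock arrays, a pooled rise of 0.64 (SE 0.07, limma adjusted p = 0.000544). Its differences were 0.58, 0.72 and 0.62 at 6 h, 10 h and 24 h. AT3G11930 read 6.70 to 6.98 with a median of 6.91 on the induced arrays, against 6.37, 6.05 and 6.34 on the mock arrays, a pooled rise of 0.61 (SE 0.08, limma adjusted p = 0.00095). Its differences were 0.59, 0.55 and 0.70 in the same order of times. In neither gene did the test of variation among the times pass (F test, limma adjusted p = 0.635 and 0.619). The range of the 9 induced arrays was narrow in both genes and clear of the mock range.

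Among the falls, AT1G23160, a gene of the GH3 family whose known members join amino acids to plant hormones and related acids, had the largest fall of the named genes. It read 6.37 to 7.41 with a median of 6.72 on the induced arrays, against 8.13, 8.30 and 7.83 on the mock arrays. The pooled difference was -1.27 (SE 0.11, limma adjusted p = 7.85e-05), which puts the mock signal at 2.41 times the induced one. The fall was deepest at 10 h (-1.58) and least deep at 24 h (-0.86).

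IAA30, an Aux/IAA repressor of auxin-responsive transcription that lacks the degron of the canonical family members, fell by almost the same amount at each time. It read 3.52 to 3.97 with a median of 3.75 on the induced arrays, against 4.55, 4.29 and 4.82 on the mock arrays. The pooled difference was -0.80 (SE 0.11, limma adjusted p = 0.00138), made up of -0.72 at 6 h, -0.84 at 10 h and -0.84 at 24 h, with no variation among times detected (F test, limma adjusted p = 0.801). All 9 induced arrays were below the lowest mock array. The induced signals are low, where log2 differences are compressed, so the near-equal sizes are only a description.

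TRY, a small MYB-related repressor that helps to decide between hair and non-hair fate in the epidermis, read 4.93 to 5.29 with a median of 5.14 on the induced arrays, against 5.80, 5.58 and 5.77 on the mock arrays. Its pooled difference was -0.59 (SE 0.08, limma adjusted p = 0.00156). The time differences were -0.57, -0.71 and -0.48, with no variation among times detected (F test, limma adjusted p = 0.382). AT4G23680 read 2.79 to 3.23 with a median of 3.08 on the induced arrays, against 4.05, 3.69 and 3.75 on the mock arrays, a pooled difference of -0.78 (SE 0.09, limma adjusted p = 0.000544). Signals this low lie near the floor of the arrays, where log2 differences are compressed.

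**Figure D2:**
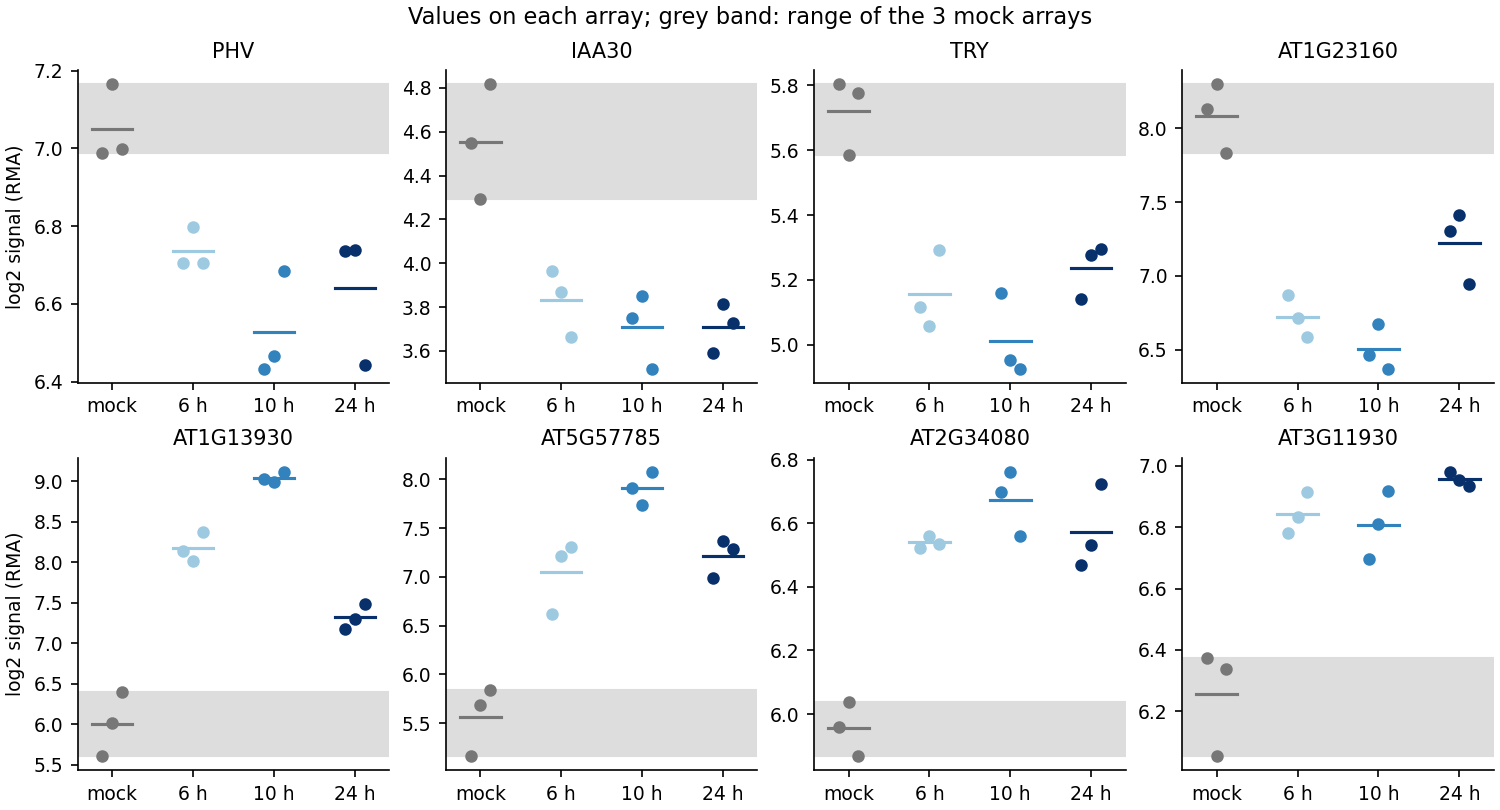
Log2 signal on each array (vertical axes), with mock, 6 h, 10 h and 24 h along the horizontal axes. The panels show PHV, which passed the threshold singly at 10 h only, and 7 genes past it at every time. Points are arrays, bars are means of 3 arrays and the grey band is the mock range. In each panel all 9 induced points lie outside the band, for instance 3.52 to 3.97 for IAA30 below a lowest mock value of 4.29.

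The remaining 6 of the 15 had no gene name and are given by probe set. The probe set 245947_at had the deepest fall of all. It read 3.91 to 6.90 with a median of 5.11 on the induced arrays, against 7.08, 7.42 and 7.42 on the mock arrays. Its pooled difference was -2.06 (SE 0.10, limma adjusted p = 1.21e-07), and the fall deepened with time, from -0.64 at 6 h through -2.23 at 10 h to -3.32 at 24 h. The probe set 248727_at ran the other way, with -2.06 at 6 h, -1.29 at 10 h and -0.51 at 24 h and a pooled difference of -1.29 (SE 0.07, limma adjusted p = 5.76e-07). Both trends differed among times (F test, limma adjusted p = 2.21e-07 and 2.32e-06). The other four were 252924_at (1.01), 249783_at (0.72), 265060_at (-0.81) and 249951_at (-0.76), with limma adjusted p between 0.000179 and 0.0008.

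Of the 15, 12 passed the pooled test in each of the 23 or 24 alternatives tried, and all 15 passed it with any 1 array left out. The exceptions were AT5G12050, 245947_at and 248727_at, which did not pass in the fit with the induced arrays as a single group. For these 3 the differences between times are counted as spread there. The pooled test does not ask for a change at every time. By the rule of passing at each time, the count was less stable. It was 5 without 6 h replicate 2, 2 with the largest p-value adjusted and 43 with a replicate block.

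A wider set was formed by the pooled calls that passed with each of the 3 times left out in turn. It held 48 probe sets (0.211%), 27 higher (0.119%) and 21 lower (0.0923%), including all 15 above, and 23 had a gene name. This rule does not ask for a change at every time, and 29 of the 48 varied among the times (F test, limma adjusted p under 0.05). In 39 of the 48 the induced arrays all lay on 1 side of the mock arrays. The median size of the pooled difference was 0.82, against 0.52 over all 541 calls. This size and the separation follow in part from the choice of the 48 by further tests on the same arrays.

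In this wider set LCR69, which encodes a small cysteine-rich, defensin-like peptide, rose by 1.09 (SE 0.15, limma adjusted p = 0.00196), with induced arrays from 5.31 to 6.54 (median 5.74) against mock arrays of 4.54, 4.84 and 4.64. LTI30, a dehydrin induced by cold and abscisic acid, rose by 0.82 (SE 0.11, limma adjusted p = 0.00105), with differences of 1.09, 1.07 and 0.31 at 6 h, 10 h and 24 h. The peroxidase gene AT4G16270 rose by 0.92, with 0.58, 1.21 and 0.96 at the 3 times. These genes had all 9 induced arrays above the mock range.

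TBL36, a member of the family of wall polysaccharide acetyltransferases, read 7.72 to 8.57 with a median of 8.04 on the induced arrays, against 8.72, 8.92 and 8.81 on the mock arrays. It fell by 0.72 (SE 0.07, limma adjusted p = 0.000148), and further at each later time (-0.38, -0.74 and -1.06). AT3G42800 (-0.33, -0.82 and -1.27) and AT5G25490 (-0.40, -0.74 and -1.31) had the same course, as did AT5G02640 (-0.45, -0.53 and -1.05). Growing with time in the other direction were the cupredoxin family genes AT3G27200 (0.12, 1.34 and 2.01) and AT5G26330 (0.13, 0.62 and 1.32), together with AT2G27740 (0.25, 0.68 and 1.46) and AT3G48185 (0.27, 0.49 and 1.03). These 7 genes besides TBL36 were picked for their course after the values were seen, which is no test of it.

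**Figure D3:**
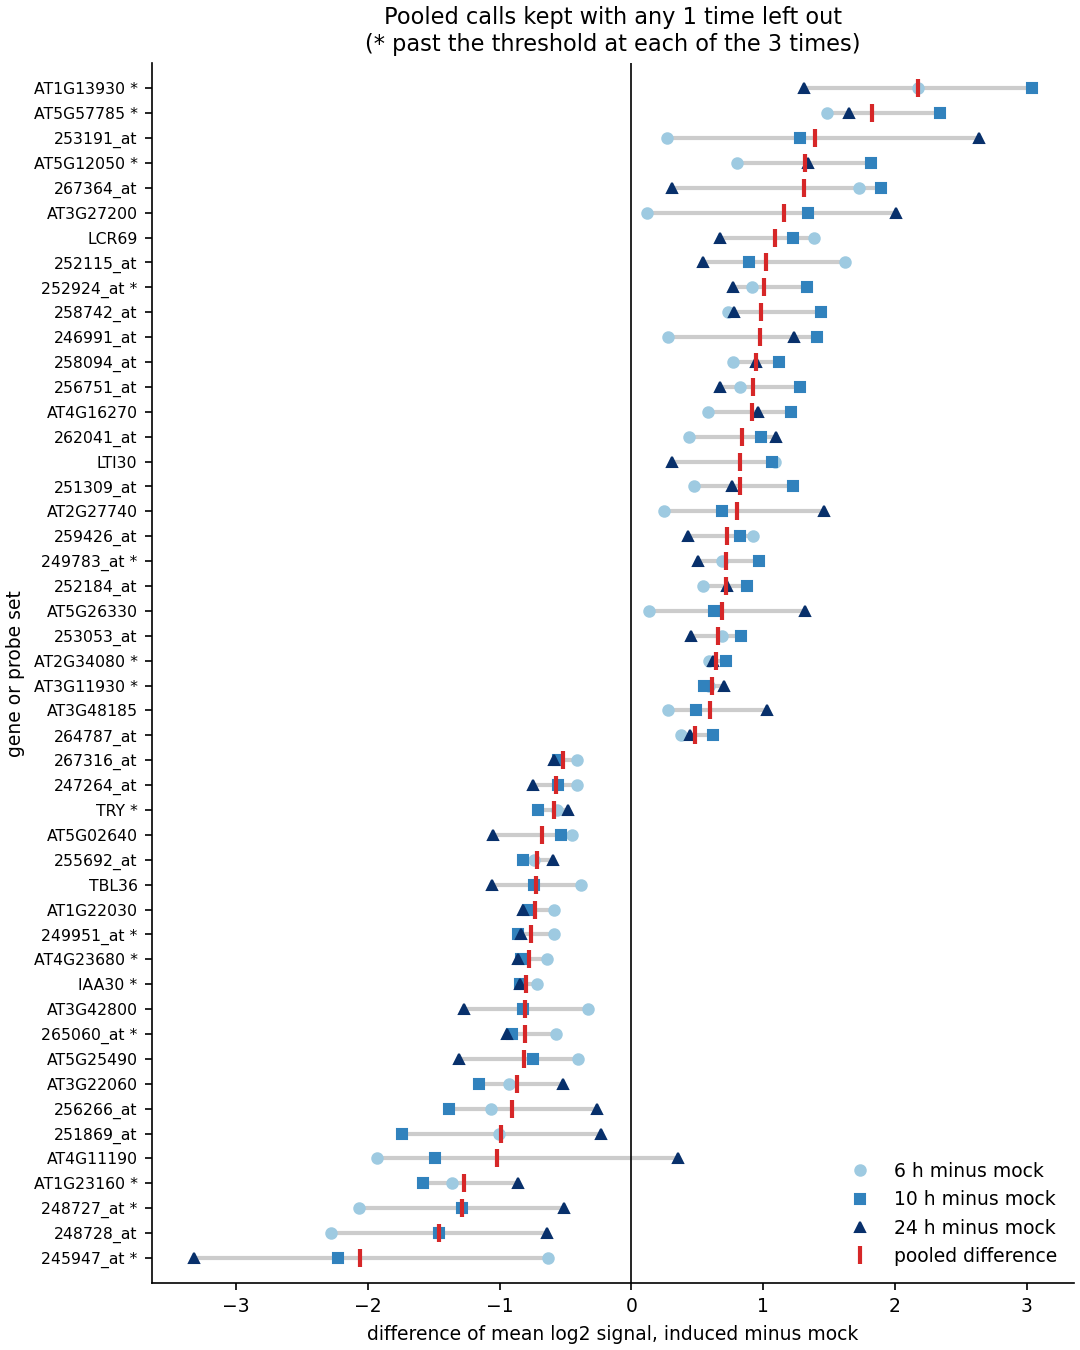
Differences from mock (horizontal axis, log2) at 6 h (circles), 10 h (squares) and 24 h (triangles), with the pooled difference as a red tick, for the 48 probe sets called whichever time was left out. Stars mark the 15 past the threshold at each time. Short grey lines, as for AT2G34080 and the dim probe set of IAA30, mark changes of similar size at all times. Long ones, as for 245947_at (-0.64 to -3.32), mark changes that grew or faded.

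Another way to describe sharing was to look for steady calls, in which all induced arrays lay on 1 side of the mock arrays, the smallest time difference was at least 0.5 of the pooled one, and no variation among times was detected. There were 165 (0.725% of probe sets, 30.5% of the pooled calls), 106 higher (0.466%) and 59 lower (0.259%), PHV, IAA30 and TRY among them. The direction and separation of these calls follow from how they were chosen. Not detecting variation with 3 arrays per time does not show that the times were equal.

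The largest named steady rise was that of AT2G23910, by 1.72 (SE 0.26, limma adjusted p = 0.00281), with induced arrays from 7.89 to 9.41 (median 8.62) against mock arrays of 7.77, 7.01 and 6.20. The wide spread of the mock arrays leaves only a narrow gap. AT4G22460 rose by 1.53 (SE 0.28, limma adjusted p = 0.00944), with induced arrays between 6.60 and 8.79 (median 8.04) against mock arrays of 6.03, 6.58 and 6.59, so that the groups nearly meet. LCR68, another defensin-like gene, rose by 0.65 (SE 0.11, limma adjusted p = 0.0065). AT1G13670 (0.89), AT5G44020 (0.77), the peroxidase gene AT3G21770 (0.76), AT2G31110 (0.76), AT4G20830 (0.74) and AT5G66440 (0.63) completed the leading rises beside LCR69, AT2G34080 and AT3G11930. Apart from LCR69, AT2G34080 and AT3G11930, each of the leading rises was lost without the 10 h arrays (limma adjusted p = 0.0529 to 0.506). Among these, AT4G22460 (limma adjusted p = 0.0735), AT1G13670 (limma adjusted p = 0.073), AT3G21770 (limma adjusted p = 0.0632) and LCR68 (limma adjusted p = 0.0513) were no longer called without mock replicate 1, and AT5G44020 and AT2G31110 were lost without any 1 of the mock arrays (limma adjusted p = 0.0731 to 0.181) and without any 1 of the 10 h arrays (limma adjusted p = 0.0553 to 0.0724).

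On the falling side the steady calls were led by hemb2, a gene named for an enzyme of tetrapyrrole synthesis, with -0.82 (SE 0.13, limma adjusted p = 0.00536). It read 6.03 to 7.00 with a median of 6.41 on the induced arrays, against 7.22, 7.55 and 7.09 on the mock arrays. The closest induced and mock arrays differed by little. AT1G66800 (-0.77), AT3G56810 (-0.76), AT1G22030 (-0.73), AT5G02580 (-0.65), AT5G60630 (-0.63), AT5G23840 (-0.62), AT1G26680 (-0.62) and IQD26 (-0.50), a calmodulin-binding scaffold gene, followed. All of these falls except AT1G22030 were lost without the 10 h arrays (limma adjusted p = 0.0549 to 0.28). AT1G22030 was lost without mock replicate 2 (limma adjusted p = 0.054). AT5G60630 was lost without mock replicate 2 or 3 and without 10 h replicate 1 or 3 (limma adjusted p = 0.0503 to 0.159), and AT1G26680 without any of 9 arrays (limma adjusted p = 0.0581 to 0.152).

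Auxin genes did not move as a block. Of 7 measured Aux/IAA genes 2 fell and none rose, with a median difference of -0.10, against 0.598% lower and a median of -0.01 over all probe sets. IAA20, like IAA30 a family member without the degron, fell by 0.38 (SE 0.08, limma adjusted p = 0.0166). It read 4.20 to 4.83 (median 4.45) on the induced arrays, against 4.80, 4.85 and 4.88 on the mock arrays, so the groups overlap. Its differences of -0.12, -0.43 and -0.59 grew with time (F test, limma adjusted p = 0.0275), and the pooled call ended without any 1 of the 3 mock arrays (limma adjusted p = 0.058 to 0.0764). IAA29 (0.38, limma adjusted p = 0.0665), IAA33 (-0.30), IAA18 (0.21), IAA31 (-0.10) and IAA34 (-0.03) did not pass. Of 6 auxin response genes 1 rose, GH3.3, which encodes an enzyme that conjugates auxin to amino acids. Its induced arrays ran from 3.46 to 5.50 with a median of 3.65, against 3.51, 3.68 and 3.20 on the mock arrays, and the rise lay at 24 h (1.75) rather than at 6 h (0.08) or 10 h (0.15). GH3.3 is thus a pooled call set by 1 time, and without the 24 h arrays it was not called (limma adjusted p = 0.621).

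Neither of 2 measured type-A response regulators, which dampen cytokinin signalling, passed, ARR15 being nearest at -0.17 (limma adjusted p = 0.304). The HD-ZIP II gene HAT2 read 0.05 higher (limma adjusted p = 0.878, 95% interval -0.15 to 0.25). Of 2 genes of the small RNA machinery none passed, AGO7 reading -0.16 (limma adjusted p = 0.427). None of 2 S phase genes and 4 G2/M genes passed, PRL being at -0.14 and AUR3 at -0.18.

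Several wall-related families held more pooled calls than the 2.38% of all probe sets, and many of these calls varied among the times. Like the other gene lists, these families were chosen with earlier results of these data known. The excess may follow from that choice and is given as a description. The F test among times passed for 6 of 11 peroxidase calls, 4 of 4 trichome birefringence-like calls, 3 of 4 expansin calls, 2 of 2 RALF-like calls and 1 of 2 XTH calls. Over all pooled calls it passed for 234 of 541 (43.3%), so variation among times was not particular to these families. Of 55 class III peroxidase genes, which oxidise phenolics and other substrates in the wall, 9 rose and 2 fell (20.0%). Their median difference was 0.09, against -0.01 over all probe sets. For 9 of the 11 calls the largest difference was at 10 h, much as for the 82.1% of all pooled calls. AT4G16270, 1 of the 11, passed whichever time was left out, as did 8.87% of all pooled calls. Of the leading rises, AT1G30870 had a pooled difference of 1.27 (SE 0.23, limma adjusted p = 0.00928), composed of 0.27, 2.84 and 0.71 at 6 h, 10 h and 24 h, and it was lost without mock replicate 2 (limma adjusted p = 0.0778). AT3G49960 had 1.07 (0.31, 2.15 and 0.75). Less uneven members were AT3G21770 (0.76, with 0.45, 1.11 and 0.73) and Prx37 (0.57, with 0.71, 0.66 and 0.34), and among the falls AT2G22420 (-0.41, with -0.37, -0.33 and -0.54). AT3G21770 was still largest at 10 h and was lost without the 10 h arrays (limma adjusted p = 0.266).

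Trichome birefringence-like genes gave 3 rises and 1 fall among 22, with a median of 0.07. TBL38 had a pooled difference of 1.07, TBL21 of 0.95 and TBL19 of 0.61, each largest at 10 h (1.78, 1.56 and 1.01), and all 4 calls varied among the times. TBL38 was lost without mock replicate 1 (limma adjusted p = 0.0822) or 2 (limma adjusted p = 0.0872), and TBL21 (limma adjusted p = 0.0538) and TBL19 (limma adjusted p = 0.0513) without mock replicate 1. Of 11 RALF-like genes, which encode peptide signals that regulate growth and wall acidity, 2 rose. RALFL32 rose by 0.59 (SE 0.08, limma adjusted p = 0.00095), with 8.54 to 9.22 (median 8.92) on the induced arrays against 8.34, 8.39 and 8.23 on the mock arrays. RALFL27 rose by 1.03 (SE 0.15, limma adjusted p = 0.00233), with 6.55 to 8.0 (median 7.26) on the induced arrays against 6.25, 5.98 and 6.47 on the mock arrays. Neither gene's groups overlapped, but both calls were lost without the 10 h arrays (limma adjusted p = 0.0683 and 0.158).

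Expansins, which loosen walls, split into 2 rises and 2 falls among 18, with a median of 0.03. EXLA2 had a pooled difference of -0.51, with -1.08 at 6 h, -0.56 at 10 h and 0.11 at 24 h, and EXLA1 had -0.47 (limma adjusted p = 0.0495). The root hair expansin EXPA7 had 0.96 (0.27, 2.02 and 0.59) and EXPB1 0.33 (0.04, 0.54 and 0.41). EXLA1, EXPA7 and EXPB1 were lost without mock replicate 1 (limma adjusted p = 0.135 to 0.209) and without mock replicate 2 (limma adjusted p = 0.0759 to 0.152), EXLA1 and EXPB1 without mock replicate 3 (limma adjusted p = 0.0876 and 0.101) and several induced arrays too, and EXPA7 without 10 h replicate 3 (limma adjusted p = 0.0527). Of 9 xyloglucan-modifying XTH genes, XTH18 rose by 0.87 (0.43, 1.34 and 0.84) and XTH21 by 0.58 (0.37, 0.80 and 0.58). XTH21 was lost without mock replicate 1 (limma adjusted p = 0.225) or 2 (limma adjusted p = 0.119) and without 5 of the induced arrays (limma adjusted p = 0.0582 to 0.0743). Of 22 cellulose synthesis and cellulase genes the cellulase GH9B6 fell, by 0.64 (-1.02, -0.73 and -0.17), and was lost without mock replicate 1 (limma adjusted p = 0.0567) or 2 (limma adjusted p = 0.0591). Among 4 pectin enzyme genes none passed.

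Markers of epidermis and root hairs did not move in 1 direction, and EXPA7 among them is also counted with the expansins above. Of 3 measured markers 1 rose (EXPA7) and 1 fell (TRY), and their mean level per array was 4.94 to 5.10 at 6 h, 5.94 to 6.08 at 10 h and 4.85 to 5.75 at 24 h, against 5.07 to 5.23 on the mock arrays. It was thus above the mock range on every 10 h array. Of 2 endodermis and cortex markers AT1G09750 rose by 0.32 (limma adjusted p = 0.045), with 0.63, 0.49 and -0.16 at the 3 times, a call lost under 15 alternatives, among them leaving out mock replicate 1 (limma adjusted p = 0.181) or 2 (limma adjusted p = 0.212). Markers of the niche (BBM, -0.13), vascular precursors (0 of 3), xylem (AT5G60720, 0.13), phloem (OPS, 0.16) and root cap (AT5G54370, -0.12) did not pass. The part of cell composition in the wall gene results was not tested.

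**Figure D4:**
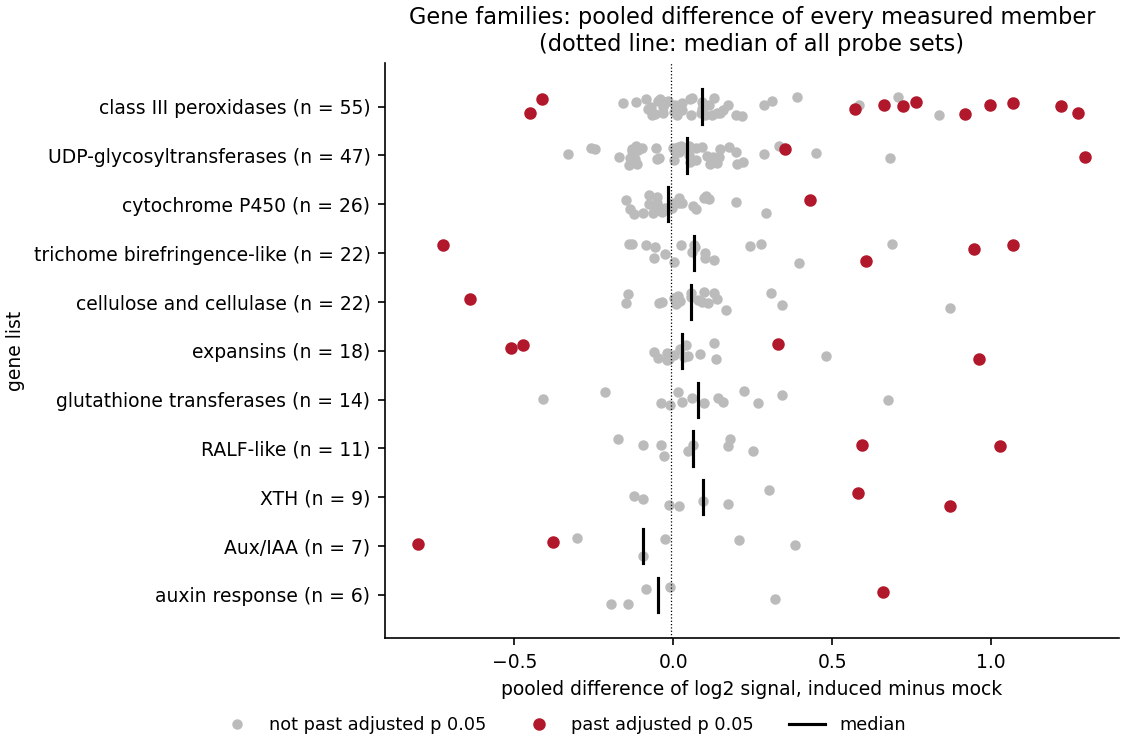
Pooled difference of every measured member (horizontal axis, log2, induced minus mock) of 11 gene families (rows), with calls past an adjusted p of 0.05 in red, other genes in grey and the family median as a black bar. Medians lie between -0.10 (Aux/IAA) and 0.09 (XTH and peroxidases), close to the -0.01 of all probe sets, while single members reach 1.30 (UGT84A1) and -0.80 (IAA30).

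Of 47 UDP-glycosyltransferase genes 2 rose (4.26%, against 2.38% called over all probe sets). UGT84A1, which acts on phenylpropanoid acids, had a pooled difference of 1.30 (SE 0.23, limma adjusted p = 0.00928), with 0.58, 2.04 and 1.27 at 6 h, 10 h and 24 h, and was lost without mock replicate 2 (limma adjusted p = 0.064) or 3 (limma adjusted p = 0.053). UGT71B1 had 0.35 (limma adjusted p = 0.0469). Of 26 cytochrome P450 genes CYP71B34 rose (0.43, limma adjusted p = 0.00865), and of 14 glutathione transferase genes none passed, GSTU27 being nearest (0.34, limma adjusted p = 0.076). GSTU27 did pass with an intensity trend (limma adjusted p = 0.033), with the 6 h arrays left out (limma adjusted p = 0.0415) and without 24 h replicate 1 (limma adjusted p = 0.0416). CYP71B34 was lost without mock replicate 1 (limma adjusted p = 0.0513) and UGT71B1 without any 1 mock array (limma adjusted p = 0.0725 to 0.245).

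Of 5 measured genes on the gibberellin, brassinosteroid and abscisic acid list, LTI30 and COR27 rose, and of 3 clock genes COR27 and AT4G33980 did. Over all probe sets 1.78% were called higher and 0.598% lower. The short lists of this paragraph were chosen with earlier results of these data known, and COR27 is counted on both of these. COR27, a gene regulated by cold and the circadian clock, had a pooled difference of 0.41 with 0.63 at 6 h, 0.59 at 10 h and 0.00 at 24 h, and AT4G33980 had 0.47 with 0.77, 0.69 and -0.04. Both were calls of the earlier times, and both were lost without the 6 h arrays (limma adjusted p = 0.118 and 0.0554) and without mock replicate 1 (limma adjusted p = 0.111 and 0.0877) or 2 (limma adjusted p = 0.126 and 0.0563). PDC2, a pyruvate decarboxylase gene of the ethanol fermentation pathway, rose by 0.65 (0.88, 0.77 and 0.30), 1 of 3 on the hypoxia and ethanol list, and was lost without mock replicate 1 (limma adjusted p = 0.0949) or 2 (limma adjusted p = 0.0972). None of 6 WRKY genes (WRKY22, -0.31) and none of 2 ethylene genes (RTE1, 0.04) passed. Of 3 polyamine genes the S-adenosylmethionine decarboxylase gene AT5G15950 fell (-0.73, limma adjusted p = 0.0166), with -1.26 and -1.38 at 6 h and 10 h but 0.44 at 24 h. It was lost without mock replicate 1 (limma adjusted p = 0.104) or 2 (limma adjusted p = 0.0685).

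Variation among the induced times was itself frequent among the pooled calls. The F test over 6 h, 10 h and 24 h, which does not use the mock arrays, passed for 738 probe sets (3.24%) and for 234 of the 541 pooled calls (43.3%). The strongest named cases show how a pooled call can arise from part of the course. AT2G28410 had a pooled difference of -0.78, carried by 24 h (-1.91) rather than by 6 h (-0.10) or 10 h (-0.32). The dirigent family gene AT4G11190 had -1.02, made of -1.93 at 6 h and -1.49 at 10 h with 0.36 at 24 h. AT1G30990 had 0.55, nearly all from 10 h (1.28, against 0.10 at 6 h and 0.27 at 24 h), and was lost without mock replicate 2 (limma adjusted p = 0.061). Such genes differ from mock on average over the 3 times without sharing a change across them.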

How the data were processed

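The authors deposited log2 expression values of 12 one-colour Affymetrix ATH1 arrays, 250 ng of labelled total RNA each, made with Affymetrix Expression Console and RMA per the submitters' processing notes, which also name limma. Versions are not given in the sources used here. RMA compresses changes of dim genes. The 64 control probe sets were left out, leaving 22746, of which 13513 had 1 gene symbol, 503 several and 8730 none in the platform annotation. Of the symbols, 13436 were matched to RefSeq TAIR10.1.

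One limma 3.58.1 model (R 4.3.3) with 4 group means was fitted to all 12 arrays. The contrasts were the mean of the 3 induced groups minus mock, each time minus mock, and an F test among the induced times, each Benjamini-Hochberg adjusted over all probe sets, with a threshold of 0.05. The method was tested on simulated data. Named genes were PHV, all probe sets changed at every time, the 12 largest named steady rises and falls, up to 4 members of each list (otherwise the 1 with the smallest p), and the 6 calls with the smallest F test p. Any gene outside that rule was picked with its values in view. The members and the 41 lists, of which 31 had a measured gene, were chosen with earlier results of these data known, and the peroxidase list was completed by locus once the annotation was seen to hold no descriptions. The alternatives comprised median centring, quantile normalization, dropping probe sets with a mean under 5, other moderation, array weights, a replicate block, a 1.5-fold minimum, leaving out each time or array, and the induced arrays as 1 group. No coordinates are given, since no build is stated for the values.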

Additional observations from a re-analysis of the deposited data

Results flagged for a closer look

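The size of the change differed among 6 h, 10 h and 24 h for 33 of the 78 named genes and probe sets (F test over the induced arrays, limma adjusted p under 0.05). With 3 arrays per group, no group was large enough for the check on single outlying arrays.

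Changes that grew with time were those of 245947_at (limma adjusted p = 2.21e-07), TBL36 (0.00277) and IAA20 (0.0275). Changes that lay mainly at 24 h were those of AT2G28410 (limma adjusted p = 2.21e-07) and GH3.3 (2.12e-05).

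Changes larger at 6 h and 10 h than at 24 h were those of 248727_at (limma adjusted p = 2.32e-06), AT4G11190 (2.85e-06), EXLA2 (6.36e-05), AT5G15950 (0.000132), AT1G09750 (0.000831), AT4G33980 (0.0019), LTI30 (0.00614), COR27 (0.00737), GH9B6 (0.0113) and AT1G23160 (0.0271). The difference at 24 h had the opposite sign in AT4G11190 (0.36), EXLA2 (0.11), AT5G15950 (0.44), AT1G09750 (-0.16) and AT4G33980 (-0.04).

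Changes largest at 10 h were those of AT1G30990 (limma adjusted p = 0.000172), AT1G13930 (0.000185), AT3G49960 (0.000289), AT1G30870 (0.000413), EXPA7 (0.00439), CYP71B34 (0.00527), AT5G12050 (0.00657), RALFL27 (0.0177), TBL21 (0.0192), TBL19 (0.0218), EXPB1 (0.022), RALFL32 (0.0263), TBL38 (0.0275), XTH18 (0.0304), UGT84A1 (0.031), AT5G57785 (0.0399), 252924_at (0.0453) and AT4G16270 (0.04999). For AT4G16270 the value is barely past the threshold.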

How the results depend on the processing

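No named call changed direction under any alternative. Of 65 named calls, 36 passed with any 1 array left out, 42 were lost without the 10 h arrays, 8 without the 6 h arrays, 5 without the 24 h arrays and 52 with the induced arrays as 1 group. Centring arrays on their medians gave 530 pooled calls, 68.3% higher against 74.9%, and robust moderation 529.

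The 541 pooled calls (405 higher, 136 lower) were 26 (14 and 12) with the induced arrays as 1 group, 219 (176 and 43) with a 1.5-fold minimum, 57 (29 and 28) without the 10 h arrays, 1181 (746 and 435) without the 24 h arrays, 804 (658 higher) without the 6 h arrays, and 814 (580 and 234) with an intensity trend. With any 1 array left out they ranged from 212 (without mock replicate 1) to 702, higher calls from 131 to 535 and lower calls from 45 (without mock replicate 2) to 201.

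The count changed at all 3 times, 15, was 24 with an intensity trend, 41 with array weights, 9 with a 1.5-fold minimum, 2 with the largest p adjusted, and 5 (without 6 h replicate 2) to 25 (without 24 h replicate 3) with 1 array left out, 7 without mock replicate 2. The 738 probe sets varying among times were 1146 with a trend, 3743 with array weights and 279 to 1015 with 1 array left out, and the 234 pooled calls among them 394, 514 and 96 to 335. The cause of these shifts was not tested, apart from the construction of the 1.5-fold minimum and of the single induced group.

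The replicate block gave 792 pooled calls, 609 of them higher, 43 changed at all 3 times and 428 pooled calls varying among times. Arrays were closest to their own number in 18 of 36 comparisons between groups. Same-numbered deviations correlated at -0.10 to 0.28 (over 0.1 in 8 of 18 pairs), and differently numbered ones at -0.26 to 0.16. These values do not decide whether the numbers mark pairs. No label names a replicate block, and the main fit holds none. With the block EXLA1 was no longer called (limma adjusted p = 0.056), GSTU27 was (limma adjusted p = 0.0195), and PHV passed at -0.42. It missed the 1.5-fold minimum at -0.42, and did not pass with 1 induced group at -0.42 (limma adjusted p = 0.107) or without the 10 h arrays at -0.36. With 1 array left out it ranged from -0.45 to -0.36. Dim probe sets, AT4G23680, IAA30 and CYP71B34 among them, have compressed differences.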

Other observations

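Of the named pooled calls, at 274 loci, 8 pairs were direct neighbours in the RefSeq table, and in 7 pairs both genes moved the same way. Of all pooled calls 74.9% were higher, so many pairs of calls share a direction whatever their position. Whether neighbours were more frequent than among other genes was not tested. The pairs included the methionine sulfoxide reductase genes MSRB5 (0.37) and MSRB6 (0.50), both higher, and TBL21 with TBL19, given above. The plastid genes atpF (-0.49) and atpH (-0.48), which encode subunits of the plastid ATP synthase, were both lower, by -0.41 and -0.28 at 6 h, -0.44 and -0.45 at 10 h and -0.62 and -0.71 at 24 h. AtpF passed narrowly (limma adjusted p = 0.0495) and atpH with limma adjusted p = 0.028. Pairs were chosen after the values were seen, and related neighbours may share probes.

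The unnamed probe sets 248727_at and 248728_at followed nearly the same course, at -2.06 and -2.28 at 6 h, -1.29 and -1.46 at 10 h and -0.51 and -0.64 at 24 h.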
